A study of Arabidopsis thaliana with 6 samples.

Results

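The genes described here lie on the part of Arabidopsis Chr.2 that is present in 3 copies in both of the trisomics compared, and in 2 copies in the wild type. They were taken by position and brightness: loci named AT2G with a number below AT2G25740, each with a probe set assigned to that locus alone and a mean log2 signal over all 6 arrays of 6.28 or more, which is a signal of 77.7. Of 1097 such loci on the array, 692 were too dim, 4 were left out by the rule that set the list, and 401 remained, out of 7256 genes tested in all. The annotation holds 1921 protein-coding loci in the same stretch. The brightness limit was set on the mean over all karyotypes. The 4 loci left out are named in the rule, and all 4 had ratios to WT far from those of the members in at least 1 trisomic, so that the tails of the distributions below are those of a list without them.

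RNA of rosette leaves from 26-day-old plants was hybridised to Affymetrix ATH1 arrays, which carry short oligonucleotide probe sets for most nuclear genes, with 2 arrays per karyotype. Tertiary trisomy 2 (AAa) has round leaves and carries, beside a normal pair of each chromosome, an extra chromosome made by translocation: its Chr.2 part runs to AUR2 (AT2G25880), where a T-DNA sits (aur2-1), and the end of Chr.3 before AT3G20040 follows. Trisomy 2 (AAA) has round leaves as well, with intact AUR2, and carries a complete extra Chr.2. Wild type (WT) is diploid Col-0, the background of all 3 karyotypes, and no group was treated. Both trisomics came from the selfed aur2-1/+ line, each array held RNA combined from 21 to 35 plants, and no source used here says if the 2 arrays of a karyotype hold separately grown plants, so that all p-values below measure the spread between these arrays only.

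An extra copy of a gene adds template, and in a simple dosage response its transcript rises in proportion to copy number. Plants tolerate trisomy better than most animals, and Arabidopsis trisomics were long used to map genes to chromosomes. Departures from proportion are known as dosage compensation where the level stays near that of the diploid, and feedback on transcript level, regulators elsewhere in the genome and changes in cell composition are all known to set transcript levels apart from copy number. AAa and AAA share this stretch of Chr.2 at the same copy number and differ in what else is tripled: the rest of Chr.2 in AAA, and the end of Chr.3 in AAa.

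The median signal of the arrays lay between 155 and 171. The log2 signals of the tested genes correlated at 0.983 to 0.987 between arrays of a karyotype and at 0.955 to 0.965 between karyotypes, across genes that are not independent replicates. Of 16 marker loci for leaf and other cell types, 14 had no single-locus probe set with a name in the table used. RCA (AT2G39730), the Rubisco activase of leaf chloroplasts, gave signals of 28104 and 32034 in AAa, 39283 and 48047 in AAA and 46456 and 42830 in WT. This gene lies on Chr.2 beyond AUR2, a region tripled in AAA but not in AAa. Its signals therefore cannot separate leaf cell content from copy number between the trisomics. The root hair expansin gene EXPA7 stayed at 44.1 or less on all arrays, below the brightness limit. Signals are given as deposited, while ratios were computed after each array was centred on the genes in 2 copies, whose log2 medians against WT were -0.05 in AAa and -0.09 in AAA as deposited.

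Most genes of the tripled stretch had a fitted level above WT in both trisomics, and the median was close to the ratio of 3 copies to 2. The median ratio of the 401 members to WT was 1.45-fold in AAa and 1.44-fold in AAA, or 0.54 and 0.53 on the log2 scale, where 3 copies against 2 would give 0.58. Over all genes tested the corresponding medians were 0.05 and 0.04, and over the 5478 genes in 2 copies in all karyotypes they were 0.00 and -0.01, which the centring fixes close to 0. In whole leaves, fewer cells of a type and less RNA per cell cannot be told apart. The 2 arrays of a trisomic gave nearly the same median against the WT mean: 0.54 and 0.53 in AAa, and 0.54 on both AAA arrays.

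In AAa, 236 members (58.9%) were higher than WT at a limma adjusted p below 0.05, against 14.3% of all genes tested, and 1 member was lower, against 6.78%. In AAA, 228 members (56.9%) were higher than WT, against 11.4% of all genes tested, and none was lower, against 3.05%; 1 member was lower in AAA at an unadjusted p below 0.05, and 3 were in AAa. With the 4 left-out loci put back and the limit moved to AUR2, 3 members were lower than WT in AAa and 3 in AAA, and the percentages over all genes keep such loci. They also include the tripled regions themselves; among genes in 2 copies, 7.03% were higher and 7.76% lower in AAa, and 3.87% were higher and 3.5% lower in AAA. Of the 401 members, 376 had a ratio above 1 in AAa and 388 in AAA. Fewer passed the limma test in both: 176 (43.9%) were called higher in both trisomics, 60 in AAa alone, 52 in AAA alone and 113 (28.2%) in neither. The shares of all genes tested in these classes were not computed, so the split is given as description. Both arrays of AAa lay above or below both WT arrays for 346 members (86.3%), against 59.2% of all genes tested, and both arrays of AAA did for 339 (84.5%), against 53.9%. These comparisons share the WT arrays. With 1 array of its own left out, the count of members higher than WT was 149 or 138 in AAa and 130 or 120 in AAA.

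**Figure D1:**
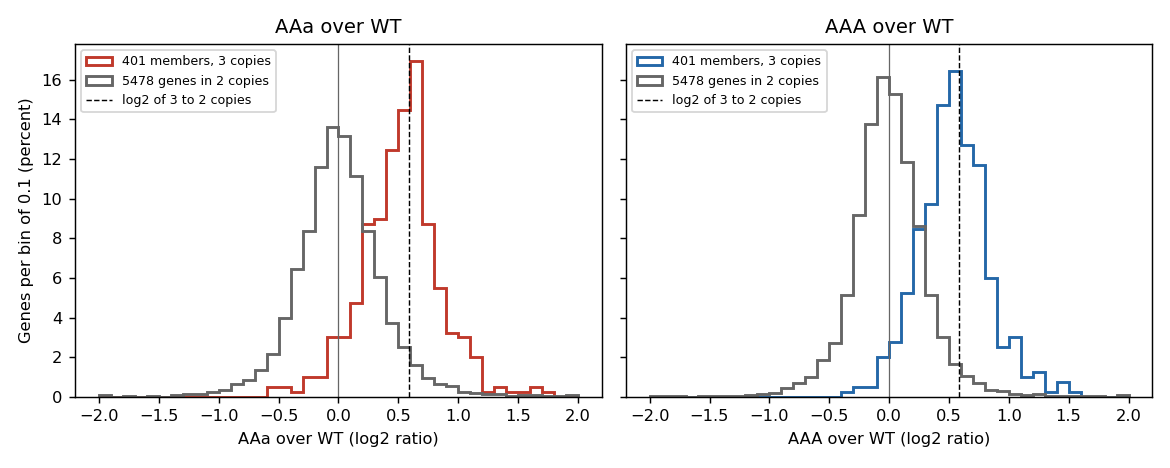
Distribution of log2 ratios to WT in AAa (left) and AAA (right) for the 401 members in 3 copies (coloured) and the 5478 genes in 2 copies (grey), as percent of genes per bin of 0.1; values beyond 2 either way are drawn in the end bins. The dashed line is log2 of 3 to 2 copies, and the members centre on 0.54 in AAa and 0.53 in AAA.

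With the 4 loci left out, the spread of ratios among members was close to that among genes whose copy number did not change. The standard deviation of the log2 ratio over members was 0.33 in AAa and 0.29 in AAA, against 0.37 and 0.32 over genes in 2 copies. The 4 loci had log2 ratios from -1.01 to 1.89 in AAa and from -1.33 to 2.83 in AAA. No such loci were taken from the genes in 2 copies, so which spread is larger cannot be read from these values. The quartiles of the members lay between 0.33 and 0.70 in AAa and between 0.36 and 0.71 in AAA. Ratios of 1 or less were found for 25 members in AAa and 13 in AAA, and log2 ratios of 1 or more for 28 in AAa and 26 in AAA. The 95% interval of the ratio averaged over both trisomics held the 3-to-2 level and not the WT level for 277 members. It held the WT level and not the 3-to-2 level for 43, held both for 41, lay between them for 14 and above the 3-to-2 level for 26. The median half-width of that interval was 0.29 on the log2 scale.

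Brightness set how finely a ratio could be read. The median standard deviation between arrays of a karyotype was 0.23 on the log2 scale among the 101 dimmest members (mean signals of 79.8 to 205), 0.17 and 0.12 in the next 2 groups of 100, and 0.10 among the 100 brightest (1061 to 41611). The spread of ratios between members was 0.44 in AAa and 0.34 in AAA among the dimmest, against 0.29 and 0.24 among the brightest. The median ratio did not follow brightness in one direction: it was 0.49, 0.56, 0.59 and 0.47 from dim to bright in AAa, and 0.54, 0.50, 0.54 and 0.53 in AAA. The members called higher than WT were fewest among the dimmest, with 31, 56, 76 and 73 from dim to bright in AAa, and 28, 47, 71 and 82 in AAA.

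Along the chromosome the ratios were level. From the short-arm end (AT2G01060 to AT2G04940, 99 members) the median log2 ratio was 0.53 in AAa and 0.56 in AAA. Over the stretch from AT2G05120 to AT2G14910, which holds the gene-poor surroundings of the centromere and 44 members, it was 0.47 in AAa and 0.48 in AAA. Between AT2G15000 and AT2G17990 it was 0.61 in AAa and 0.56 in AAA (59 members), and between AT2G18030 and AT2G19880 it was 0.60 and 0.58 (42 members). The stretches from AT2G20000 to AT2G21960 (67 members) and from AT2G22080 to AT2G23950 (35 members) gave 0.54 and 0.49 in AAa, and 0.51 and 0.45 in AAA. The last 55 members, up to AT2G25735, gave 0.54 in AAa and 0.61 in AAA. In every one of these stretches the quartiles overlapped those of its neighbours in both trisomics.

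**Figure D2:**
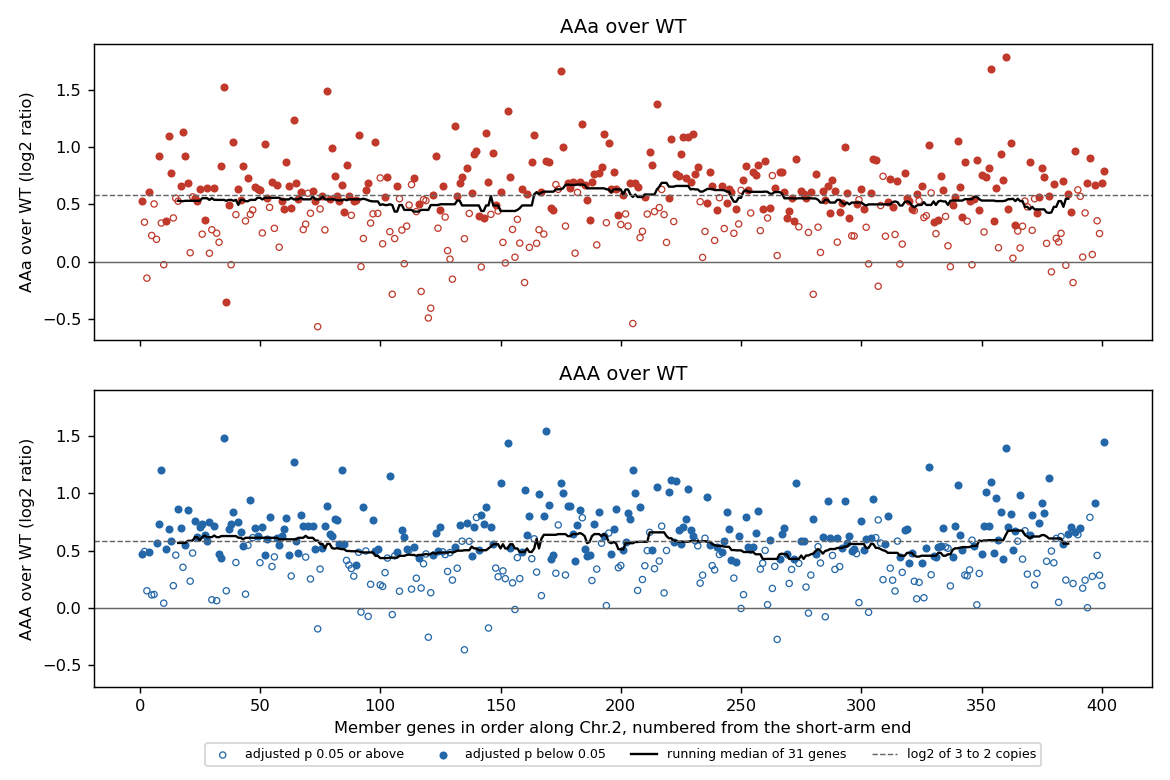
log2 ratio to WT of the 401 members in their order along Chr.2 in AAa (upper panel) and AAA (lower panel). Filled points passed the limma test at an adjusted p below 0.05, open points did not, the black line is the running median of 31 genes, and the dashed line is log2 of 3 to 2 copies; both running medians stay near that line from end to end.

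The 6 members with numbers from AT2G07180 to AT2G07741 lie beside the centromere, where Chr.2 holds a large copy of mitochondrial sequence. Their median log2 ratio was 0.47 in AAa and 0.32 in AAA, and 1 of the 6 was higher than WT in each trisomic. In both it was AT2G07360 (limma adjusted p = 0.00623 in AAa and 0.0173 in AAA). The members from AT2G07707 to AT2G07741 passed in neither. AT2G07707 and AT2G07741 had log2 ratios of -0.26 and -0.49 in AAa, and 0.17 and -0.25 in AAA. AT2G07708 and AT2G07718 had 0.54 and 0.53 in AAa, and 0.39 and 0.47 in AAA. AT2G07741 gave signals of 169 and 60.6 in AAa, 129 and 105 in AAA, and 190 and 114 in WT, so that the groups overlapped. AT2G07707 gave 207 and 159 in AAa, 261 and 219 in AAA, and 260 and 194 in WT. How far the probe sets of such loci also read mitochondrial transcripts was not tested, and their values are uncertain to that extent.

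The genes on either side of the 2 limits were as follows. AT2G25735, the last member, gave 1027 and 1148 in AAa, 1689 and 1648 in AAA, and 599 and 700 in WT, with log2 ratios of 0.79 in AAa and 1.45 in AAA. AT2G25740, the first gene beyond the limit, gave 581 and 542 in AAa, 529 and 558 in AAA, and 417 and 350 in WT, with log2 ratios of 0.60 in AAa and 0.59 in AAA. The 4 further expressed genes before AUR2 (AT2G25760, AT2G25800, AT2G25830 and AT2G25870) had log2 ratios of 0.43 to 0.80 in AAa and 0.48 to 0.80 in AAA. At the brightness limit, the dimmest members AT2G01080 and AT2G20110 had log2 ratios of -0.14 and 0.62 in AAa, and of 0.15 and 0.00 in AAA. The brightest genes left out as dim, AT2G22200 and AT2G15880, had 0.40 and 0.61 in AAa, and 0.64 and 0.47 in AAA.

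The 4 loci left out by the rule behaved unlike the members around them, and their values are given as a description. AT2G19310 gave 769 and 749 in AAa, 598 and 656 in AAA, and 1365 and 1322 in WT. AT2G20560 gave 165 and 121 in AAa, 108 and 112 in AAA, and 264 and 327 in WT. AT2G22880 gave 132 and 73.9 in AAa, 184 and 186 in AAA, and 16.8 and 45.1 in WT. GH3.3, an auxin-conjugating enzyme gene, gave 309 and 304 in AAa, 92 and 96.1 in AAA, and 252 and 249 in WT. Their log2 ratios to WT were -0.78, -1.01, 1.89 and 0.34 in AAa, and -1.02, -1.33, 2.83 and -1.33 in AAA.

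As a reference for the size of the shift, regions tripled in a single trisomic gave similar medians. The 645 expressed genes of Chr.2 beyond AUR2 had a median log2 ratio of 0.50 in AAA, where they are in 3 copies, and -0.02 in AAa, where they are in 2. The 658 genes of Chr.3 before AT3G20040 had 0.50 in AAa and -0.01 in AAA. The copy number of the members themselves was not measured on these arrays.

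Of the 401 members, 52 have a gene name or a descriptive synonym in the annotation used, and these are described by role. As a set they gave a median log2 ratio of 0.49 in AAa and 0.51 in AAA; 32 were higher and 1 was lower than WT in AAa, and 34 were higher in AAA. The other 349 members have only a locus name there and are described by number alone. All 52 are set side by side in the plot of named members by role.

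**Figure D3:**
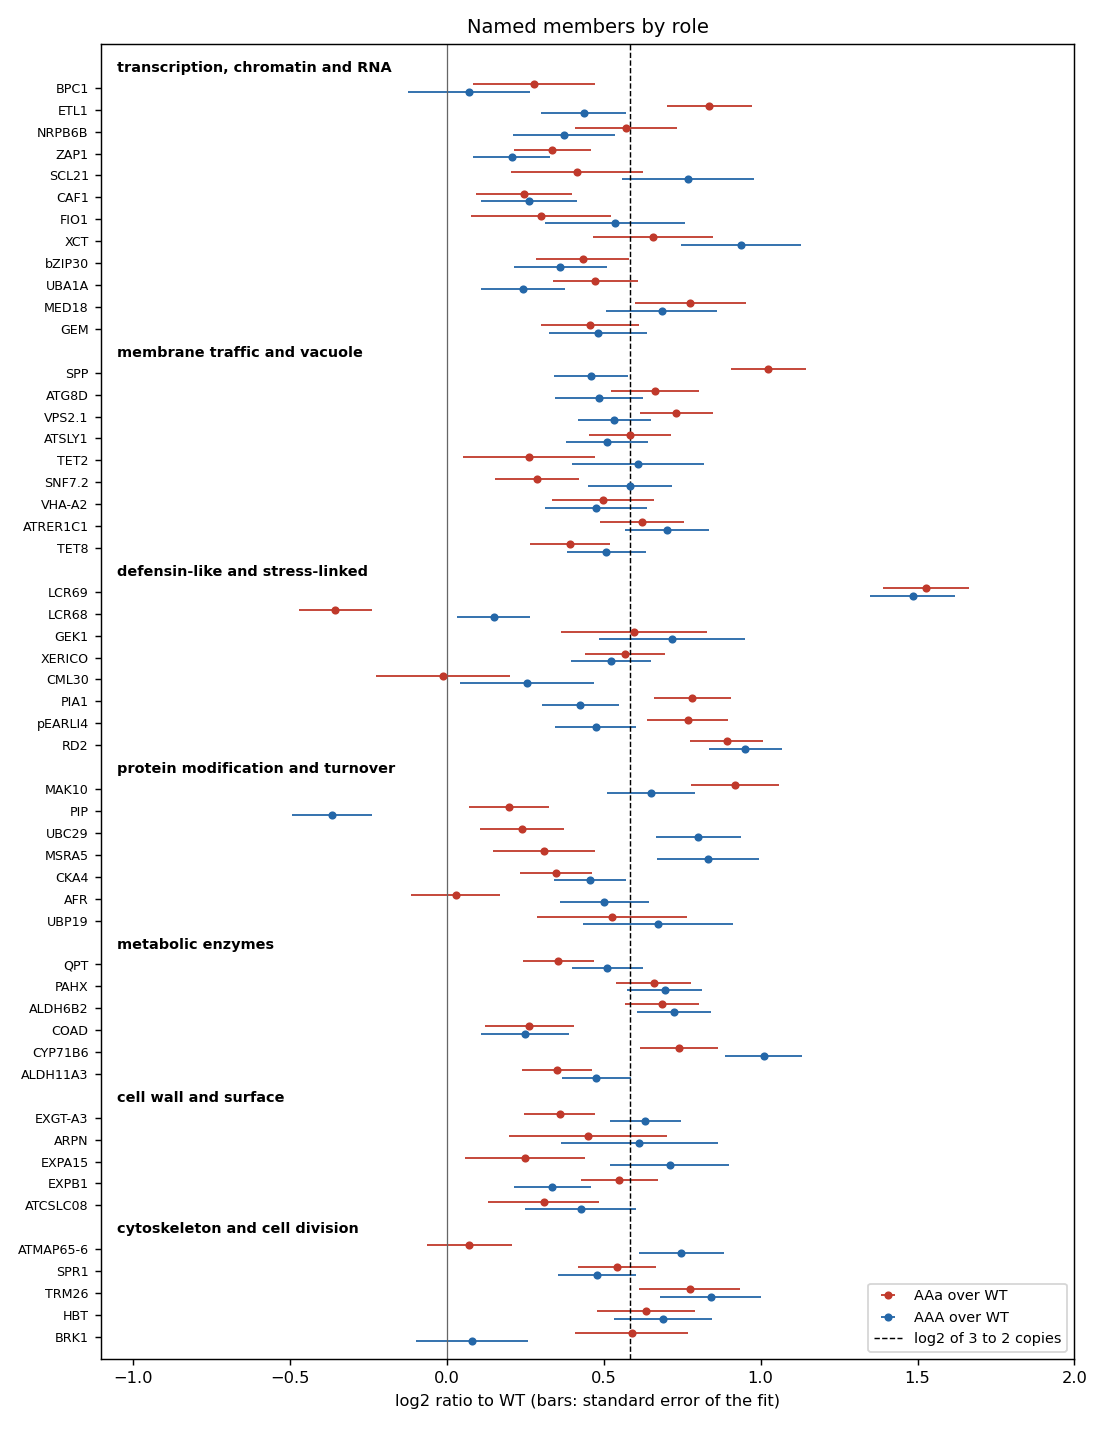
log2 ratio to WT in AAa and AAA for the 52 members with a gene name, grouped by role; points are the fitted ratios and bars the standard error of the fit (2 arrays per karyotype). Most points lie between the WT level and log2 of 3 to 2 copies or just beyond it, with LCR69 far to the right in both trisomics. LCR68 in AAa and PIP in AAA lie at -0.36, left of the WT level, and CML30 in AAa at -0.01. Against WT the limma adjusted p was 0.0387 for LCR68 in AAa and 0.0679 for PIP in AAA.

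The widest contrast between named members was between neighbouring defensin-like genes. LCR69 (AT2G02100, also PDF2.2) and LCR68 (AT2G02130, also PDF2.3) encode small cysteine-rich proteins of the plant defensin family, and follow each other in the list of members. LCR69 gave signals of 2623 and 3506 in AAa, 2787 and 2964 in AAA, and 1084 and 1090 in WT. All 4 trisomic arrays were more than 2-fold above both WT arrays, and the ratio was 2.88-fold in AAa (log2 1.53 ± 0.14, SE; limma adjusted p = 2.82e-06) and 2.8-fold in AAA (log2 1.49 ± 0.14; adjusted p = 2.01e-06). LCR68 gave 1401 and 1317 in AAa, 1777 and 1991 in AAA, and 1824 and 1767 in WT. In AAa both arrays were below both WT arrays, with a log2 ratio of -0.36 ± 0.12 (adjusted p = 0.0387), while the AAA signals overlapped those of WT as deposited and lay just above them after centring (0.15 ± 0.12, adjusted p = 0.457). LCR68 was the 1 member lower than WT in AAa, and that call did not hold without either AAa array (adjusted p = 0.105 without AAa replicate 1 and 0.162 without AAa replicate 2), without either WT array (0.123 without WT replicate 1 and 0.087 without WT replicate 2) or with the replicate number as a block (0.0513). Between them on the chromosome lies PDF2.1, which was too dim to be a member: 39.8 and 41 in AAa, 15.7 and 25.3 in AAA, and 26.9 and 18.4 in WT.

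Other stress-linked members followed copy number more closely. RD2, named for its response to desiccation, gave 3267 and 3721 in AAa, 3672 and 3424 in AAA, and 1922 and 1960 in WT, which is 1.86-fold in AAa and 1.93-fold in AAA (adjusted p = 7.42e-05 and 4.38e-05). pEARLI4, a gene found by its response to aluminium, was 1.7-fold higher in AAa and 1.39-fold in AAA, and both calls passed. PIA1, a protein phosphatase 2C induced by a bacterial effector, gave 4192 and 3927 in AAa, 3114 and 3067 in AAA, and 2166 and 2741 in WT. XERICO, a RING-H2 gene linked to abscisic acid level, was 1.48-fold higher in AAa and 1.44-fold in AAA. GEK1, needed for tolerance of ethanol, had log2 ratios of 0.60 in AAa and 0.72 in AAA, of which the second passed (adjusted p = 0.0488), and the calmodulin-like CML30 had -0.01 and 0.26, neither past the test. LCR69 and RD2 held in both trisomics with any 1 array left out, as did PIA1 and pEARLI4 in AAa. Without AAA replicate 2, the adjusted p in AAA was 0.135 for PIA1, 0.213 for pEARLI4, 0.0869 for XERICO and 0.111 for GEK1, and without WT replicate 1 it was 0.237 for PIA1, 0.137 for pEARLI4 and 0.4 for GEK1. XERICO in AAa gave 0.0661 without AAa replicate 2. Of the 8 members in this group 5 were higher and 1 lower in AAa, and 6 were higher in AAA, with medians of 0.68 and 0.50.

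Transcription, chromatin and RNA genes formed the largest named group, with 12 members and medians of 0.44 in AAa and 0.41 in AAA. In AAa 7 of them were higher than WT and in AAA 5, and none was lower. XCT, the circadian clock regulator XAP5 CIRCADIAN TIMEKEEPER, gave 265 and 203 in AAa, 265 and 285 in AAA, and 168 and 137 in WT (1.58-fold in AAa and 1.92-fold in AAA). MED18, a subunit of the Mediator complex that links transcription factors to RNA polymerase II, was 1.71-fold higher in AAa and 1.61-fold in AAA. The SNF2-type chromatin remodeller gene ETL1 gave 935 and 995 in AAa, 790 and 645 in AAA, and 537 and 580 in WT, with all trisomic arrays above WT and both AAa arrays above both AAA arrays. NRPB6B, an RNA polymerase subunit gene, was 1.49-fold higher in AAa (adjusted p = 0.0194) and at 1.3-fold in AAA (adjusted p = 0.144). The RNA-binding protein gene UBA1A (0.47 and 0.24 on the log2 scale in AAa and AAA) and bZIP30 (0.43 and 0.36) passed in AAa alone, and the GRAS gene SCL21 (0.42 and 0.77) in AAA alone, while GEM, a modulator of epidermal cell fate, passed in both (0.46 and 0.48). MED18 and ETL1 in AAa held with any 1 array left out. The other calls of this group did not: without WT replicate 1 the adjusted p was 0.0798 for NRPB6B, 0.24 for bZIP30, 0.0562 for UBA1A and 0.0908 for GEM in AAa, and 0.156 for ETL1, 0.111 for SCL21, 0.0993 for MED18 and 0.0975 for GEM in AAA. XCT gave 0.222 in AAa without AAa replicate 1 and 0.142 without WT replicate 2, and 0.0503 in AAA without AAA replicate 2.

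In that group 4 members passed in neither trisomic. BPC1, a GAGA-binding factor, gave 299 and 225 in AAa, 193 and 250 in AAA, and 206 and 237 in WT, so that all 3 groups overlapped. ZAP1, a WRKY transcription factor also called WRKY1, gave 1237 and 1272 in AAa, 1191 and 1051 in AAA, and 968 and 1088 in WT, and its log2 ratios were 0.34 in AAa and 0.21 in AAA (adjusted p = 0.0629 and 0.312). CAF1, which takes part in splicing of chloroplast introns, had 0.25 in AAa and 0.26 in AAA, and FIO1, a methyltransferase gene that affects circadian period, had 0.30 and 0.54. The departure of each of these 4 from the 3-copy level did not pass either. The intervals of the log2 ratio averaged over both trisomics, which are not adjusted for the number of genes, did exclude some levels. Those of BPC1 (-0.18 to 0.53) and CAF1 (-0.03 to 0.53) held the WT level and not the 3-copy level. That of ZAP1 (0.05 to 0.50) lay between the levels. FIO1 had an interval (0.01 to 0.83) that held the 3-copy level and not the WT level.

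Of 9 members that act in membrane traffic and the vacuole, 7 were higher in AAa and 7 in AAA, with medians of 0.59 and 0.51. SPP, the signal peptide peptidase of the endoplasmic reticulum, gave 2507 and 2698 in AAa, 1646 and 1784 in AAA, and 1392 and 1252 in WT. All AAa arrays lay above all AAA arrays, and all AAA arrays above all WT arrays, with ratios to WT of 2.03-fold in AAa and 1.37-fold in AAA. The ESCRT-III subunits of multivesicular body sorting, VPS2.1 and SNF7.2, had log2 ratios of 0.73 and 0.29 in AAa, and 0.53 and 0.58 in AAA, and SNF7.2 did not pass in AAa (adjusted p = 0.148). ATG8D, a ubiquitin-like protein of autophagosomes, ATSLY1, a Sec1-like regulator of vesicle fusion, and ATRER1C1, a retrieval receptor of the Golgi, were 1.58-, 1.5- and 1.54-fold higher in AAa, and 1.4-, 1.42- and 1.63-fold higher in AAA. TET8, a tetraspanin, was among the 10 brightest members, with 8025 and 7755 in AAa, 8070 and 8636 in AAA, and 7037 and 5482 in WT (1.31-fold in AAa and 1.42-fold in AAA). The proton pump subunit gene VHA-A2 passed in AAa alone (0.50 and 0.47 on the log2 scale in AAa and AAA), and TET2 in neither (0.26 and 0.61). ATRER1C1 held in both trisomics with any 1 array left out, as did SPP, ATG8D and VPS2.1 in AAa. Without WT replicate 2 the adjusted p was 0.33 for TET8 and 0.38 for VHA-A2 in AAa, and 0.101 for SPP, 0.119 for ATG8D, 0.0998 for ATSLY1 and 0.144 for TET8 in AAA. ATSLY1 in AAa gave 0.0665 without AAa replicate 2, and in AAA without AAA replicate 1 VPS2.1 gave 0.0502 and SNF7.2 0.103.

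Of the 7 members for protein modification and turnover, 2 were higher than WT in AAa and 5 in AAA, with medians of 0.31 and 0.65. Between the trisomics 4 of the 7 differed, against 16% of all members and 22.4% of all genes tested. The group was formed after the names were known and was not tested as a set. Each of these 4 calls was lost without 1 or more of the arrays, as given below. UBC29, a ubiquitin-conjugating enzyme, gave 957 and 1079 in AAa, 1424 and 1504 in AAA, and 992 and 796 in WT, so that AAa overlapped WT while AAA lay above both. MSRA5, a methionine sulfoxide reductase, gave 354 and 333 in AAa, 506 and 458 in AAA, and 249 and 330 in WT. AFR, an F-box protein of far-red light signalling, gave 439 and 441 in AAa, 657 and 540 in AAA, and 437 and 453 in WT. PIP, a proline iminopeptidase, went the other way, with 3486 and 4363 in AAa, 2664 and 2488 in AAA, and 3700 and 3329 in WT. The N-terminal acetyltransferase gene MAK10 was higher in both (1.89-fold in AAa and 1.57-fold in AAA), as was CKA4, a casein kinase 2 catalytic subunit (1.27- and 1.37-fold), while the ubiquitin protease gene UBP19 passed in neither (0.53 and 0.67 on the log2 scale). Against WT, MAK10 in AAa and UBC29 and MSRA5 in AAA held with any 1 array left out. Without WT replicate 2 the adjusted p was 0.239 for CKA4 in AAa, and 0.105 for CKA4 and 0.0677 for AFR in AAA, and without AAA replicate 2 it was 0.059 for MAK10 in AAA.

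The metabolic enzymes were higher in both trisomics with 1 exception. PAHX, phytanoyl-CoA hydroxylase, gave 2518 and 2683 in AAa, 2681 and 2518 in AAA, and 1566 and 1844 in WT. ALDH6B2, methylmalonate semialdehyde dehydrogenase, gave 1855 and 1884 in AAa, 1948 and 1798 in AAA, and 1122 and 1281 in WT. These genes were 1.58- and 1.61-fold higher in AAa, and 1.62- and 1.65-fold in AAA, and the trisomics differed by less than 0.05 on the log2 scale for each. QPT of NAD synthesis was 1.28-fold higher in AAa and 1.43-fold in AAA, ALDH11A3, the non-phosphorylating glyceraldehyde phosphate dehydrogenase, 1.28- and 1.39-fold, and the cytochrome P450 gene CYP71B6 1.67- and 2.01-fold. COAD, which acts in coenzyme A synthesis, gave 556 and 586 in AAa, 598 and 508 in AAA, and 520 and 464 in WT, and passed in neither. The calls of PAHX, ALDH6B2 and CYP71B6 held with any 1 array left out. Without AAa replicate 2 the adjusted p in AAa was 0.117 for QPT and 0.177 for ALDH11A3, and without AAA replicate 1 it was 0.0614 for QPT and 0.0737 for ALDH11A3 in AAA.

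Of 5 cell wall genes none differed between the trisomics past the test, and of 5 cytoskeleton and cell division genes 1 did, ATMAP65-6. In AAa 2 of the cell wall genes and 4 of the cytoskeleton genes were higher than WT, and in AAA 2 and 4. The xyloglucan endotransglucosylase gene EXGT-A3 gave 4437 and 4930 in AAa, 5379 and 5647 in AAA, and 3729 and 3797 in WT, with no overlap between any of the 3 karyotypes, although the difference between AAa and AAA did not pass (log2 -0.27 ± 0.11, adjusted p = 0.0963). Of the wall-loosening expansins, EXPB1 was higher in AAa (1.46-fold) and EXPA15 in AAA (1.64-fold), and their ratios in the other trisomic, 1.26-fold and 1.19-fold, did not pass. ARPN, a plantacyanin, and ATCSLC08, a cellulose synthase-like gene, had log2 ratios of 0.45 and 0.31 in AAa, and 0.61 and 0.43 in AAA, and passed in neither. ATMAP65-6, which binds microtubules, gave 847 and 963 in AAa, 1383 and 1433 in AAA, and 795 and 991 in WT. SPR1, a regulator of cortical microtubules, was 1.46-fold higher in AAa and 1.39-fold in AAA, HBT, the CDC27 subunit of the anaphase-promoting complex, 1.55- and 1.61-fold, and TRM26, of a family that recruits proteins to microtubule arrays, 1.71- and 1.79-fold. BRK1, of the SCAR/WAVE complex that nucleates actin, gave 310 and 275 in AAa, 198 and 202 in AAA, and 179 and 224 in WT, and was higher in AAa alone. EXGT-A3, ATMAP65-6 and TRM26 in AAA held with any 1 array left out. In AAa the adjusted p was 0.216 for EXGT-A3, 0.0537 for EXPB1 and 0.0892 for SPR1 without AAa replicate 2, and 0.051 for TRM26, 0.105 for HBT and 0.177 for BRK1 without AAa replicate 1. In AAA it was 0.197 for EXPA15, 0.109 for SPR1 and 0.0997 for HBT without AAA replicate 2.

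Lists of textbook pathway genes had few measured members each. Membership in these lists is from general knowledge and not from the tables used here, so they are given by count. For scale, 58.9% of all members were higher than WT in AAa and 56.9% in AAA, against 14.3% and 11.4% of all genes tested. No list was tested as a set. Of 6 measured cytosolic ribosomal protein genes, 4 were higher in AAa and 4 in AAA, with median log2 ratios of 0.41 and 0.50 and a range of 0.18 to 0.64 in AAa and 0.33 to 0.62 in AAA. Of 4 photosynthesis and plastid genes, 4 were higher in AAa and 3 in AAA (medians 0.49 and 0.43). Of 3 transcription factors, 1 was higher in AAa and none in AAA (medians 0.34 and 0.21). Of 4 defence genes, 3 were higher and 1 lower in AAa and 3 were higher in AAA (medians 0.57 and 0.76), and of 4 cell wall genes, 2 were higher in each (medians 0.41 and 0.62). The other lists had at most 2 measured members, and the chromatin list had none.

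At equal copy number most members did not differ detectably between AAa and AAA. The median log2 difference was -0.01. Of the 401, 26 (6.48%) were higher in AAa than AAA and 38 (9.48%) were lower, against 10.7% and 11.7% of all genes tested (22.4% either way) and 7.16% and 7.41% of genes in 2 copies in both. With 1 trisomic array left out the counts were 7 to 12 higher and 15 to 17 lower in AAa (7 and 16 without AAa replicate 2, 9 and 15 without AAA replicate 1), and with no filter on dim probe sets 13 and 21. The standard deviation of the difference over members, 0.34, was likewise close to the 0.37 of 2-copy genes. The 0.34 does not include the 4 left-out loci, whose differences ran from -0.94 to 1.67. The comparison of AAa with AAA uses no WT array. Both AAa arrays lay above or below both AAA arrays for 231 members (57.6%), against 61.6% of all genes tested, and for all 64 that passed. A p above the threshold does not show equal levels: the 95% interval of the difference had a median half-width of 0.33 and lay within 0.5 on the log2 scale in either direction for 146 members.

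The ratios to WT of the 26 members higher in AAa had medians of 0.87 (AAa) and 0.39 (AAA) on the log2 scale, and 25 of them were higher than WT in AAa and 11 in AAA. For the 38 members lower in AAa the medians were 0.20 (AAa) and 0.77 (AAA); 7 were higher than WT in AAa and 33 in AAA, and 12 had an AAa mean below that of WT. Both sets were picked by the difference of AAa from AAA on the same arrays. Which trisomic has the higher ratio and more calls is therefore fixed by the pick, and these values are description only. The ubiquitin control probes at the 3' end over those at the 5' end, read as a sign of RNA integrity, averaged 1.24 in AAa, 1.62 in AAA and 1.75 in WT (log2), the actin probes 3.19, 3.52 and 3.71, and the GAPDH probes 0.27, 0.29 and 0.06. Its part in these differences was not tested.

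**Figure D4:**
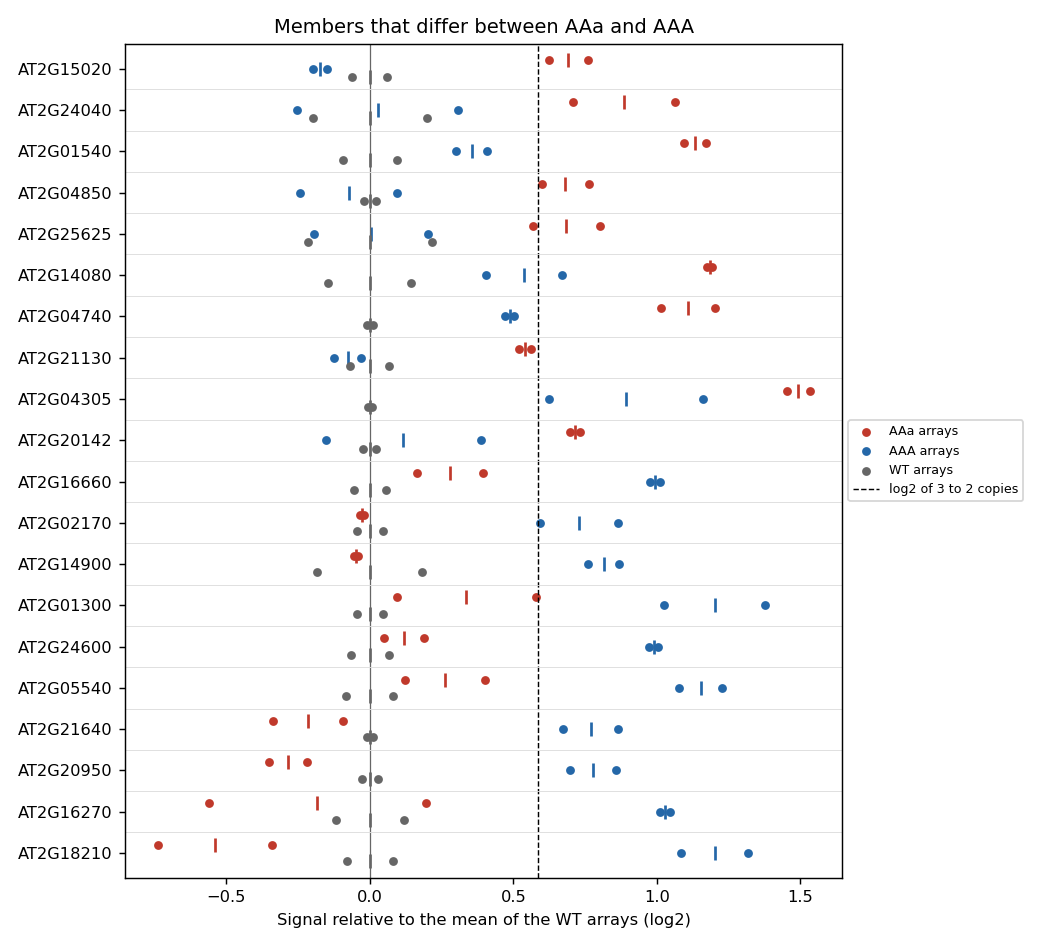
Signal on each array relative to the mean of the WT arrays (log2) for the 10 members with the largest positive and the 10 with the largest negative difference of AAa from AAA; points are arrays and ticks are group means. In the upper 10 the AAa arrays (red) lie right of the AAA arrays (blue), in the lower 10 to the left, and for several genes the trisomic with the lower level overlaps WT.

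The largest difference was that of AT2G18210, with 64.2 and 82.8 in AAa, 221 and 257 in AAA, and 104 and 116 in WT. Both AAa arrays were below WT and both AAA arrays above it, and the log2 difference was -1.74 ± 0.23 (limma adjusted p = 8.20e-05). AT2G20950 showed the same order at higher signal, with 205 and 220 in AAa, 460 and 407 in AAA, and 272 and 262 in WT (log2 difference -1.06, adjusted p = 1.95e-04). AT2G24600 gave 1480 and 1594 in AAa, 2785 and 2694 in AAA, and 1395 and 1531 in WT (-0.87, adjusted p = 6.90e-05). In this gene AAa overlapped WT, and AAA was at 1.98-fold. AT2G05540 gave 461 and 548 in AAa, 868 and 953 in AAA, and 409 and 459 in WT (-0.89). AT2G16660, 1 of the 10 brightest members, gave 6075 and 6977 in AAa, 10349 and 10502 in AAA, and 5767 and 5338 in WT (-0.71). ATMAP65-6, described above, had a difference of -0.68 (adjusted p = 0.00178), and AT2G25735, the last member before the limit, -0.66 (adjusted p = 0.00144). These 7 calls held with any 1 array left out.

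Among those higher in AAa, AT2G15020 had the largest difference, with 518 and 462 in AAa, 259 and 265 in AAA, and 300 and 326 in WT (log2 difference 0.87 ± 0.15, limma adjusted p = 6.07e-04). In AAA both arrays of this tripled gene were below both WT arrays, although that ratio did not pass (log2 -0.17, adjusted p = 0.515). AT2G01540 gave 840 and 867 in AAa, 506 and 465 in AAA, and 429 and 376 in WT (0.78, adjusted p = 6.50e-04). SPP had a difference of 0.57 (adjusted p = 0.00248). These 3 calls held with any 1 array left out. AT2G14080 gave 999 and 990 in AAa, 568 and 675 in AAA, and 499 and 409 in WT (0.65, adjusted p = 0.00363), a call that did not pass without AAA replicate 1 (adjusted p = 0.0689). AT2G04850 gave 427 and 469 in AAa, 231 and 289 in AAA, and 292 and 284 in WT (0.75, adjusted p = 0.00311; 0.058 without AAA replicate 1).

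Among the other genes with a name, each call was lost without 1 or more of the arrays. PIP had a log2 difference of 0.56 (adjusted p = 0.00431), with 0.0841 without AAa replicate 2 and 0.0543 without AAA replicate 2. LCR68 had -0.51 (adjusted p = 0.00476), with 0.0721 without AAA replicate 2. UBC29 had -0.56 (adjusted p = 0.00622), with 0.0798 without AAa replicate 1 and 0.0692 without AAA replicate 2. AFR had -0.47 (adjusted p = 0.0242), with 0.115 without AAa replicate 1, 0.0888 without AAa replicate 2 and 0.224 without AAA replicate 1. MSRA5 (-0.52), ETL1 (0.40) and PIA1 (0.36) had adjusted p = 0.0297, 0.0435 and 0.0468, and each lost its call when an array of either trisomic was left out, with 1 exception: ETL1 passed without AAA replicate 1. The adjusted p then lay between 0.082 and 0.182 for MSRA5, between 0.095 and 0.32 for ETL1 and between 0.116 and 0.192 for PIA1.

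The remaining comparison was between each member and its expected level at 3 copies. The mean log2 ratio of AAa and AAA to WT was tested against log2 of 3 to 2. At a limma adjusted p below 0.05, 10 members lay above it and 12 below. These counts moved with the processing: 4 and 3 with no filter on dim probe sets, 9 and 23 as deposited, 9 and 35 when arrays were centred on all expressed genes, 9 and 30 after quantile normalization, 5 and 4 with no intensity trend, 14 and 7 against the median ratio of genes in 3 copies, and 4 above and 9 below without WT replicate 1. Over all genes tested, each against the level of its own copy number, 3.65% lay above and 3.6% below, which for members was 2.49% and 2.99%. In AAa alone 16 members lay above and 27 below, against 5.69% and 7.28% of all genes tested, and in AAA alone 6 and 10, against 2.84% and 2.67%. In all, 59 members had every trisomic array above the 3-copy level and 101 had every one below it. The same shares were not computed over all genes tested. The members' median for the mean log2 ratio, 0.52, itself lay below log2 of 3 to 2, so both counts are description only. The test leans on the 2 WT arrays, which enter both ratios.

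**Figure D5:**
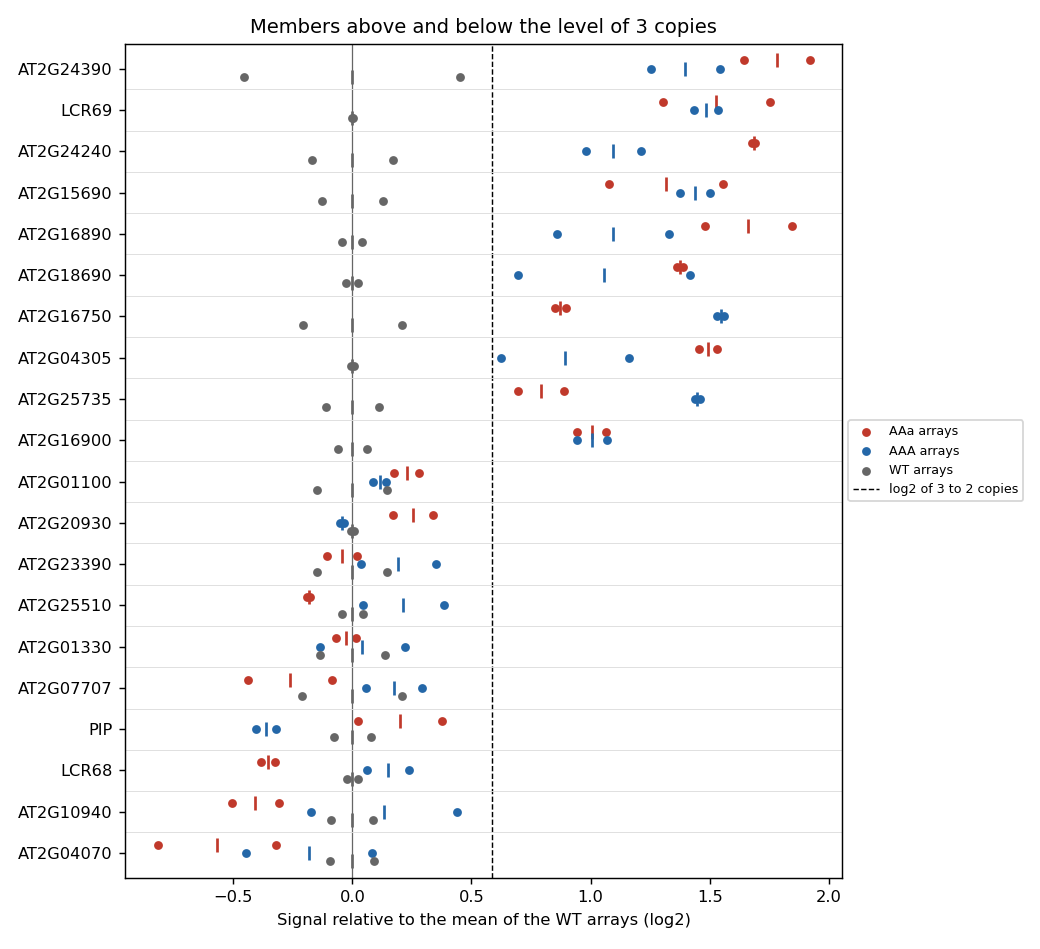
Signal on each array relative to the mean of the WT arrays (log2) for the 10 members furthest above and the 10 furthest below the 3-copy level (dashed line) among those past the limma test; points are arrays and ticks are group means. The upper 10 have all 4 trisomic arrays right of the dashed line, and in the lower 10 all 4 lie left of it, near or below the WT arrays.

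Above the 3-copy level, LCR69 had a mean ratio to WT of 2.84-fold, 0.92 above on the log2 scale (adjusted p = 1.04e-04). AT2G24240 gave 800 and 777 in AAa, 557 and 470 in AAA, and 285 and 225 in WT, a mean ratio of 2.62-fold and a departure of 0.81 (adjusted p = 0.00109). AT2G15690 gave 707 and 966 in AAa, 844 and 913 in AAA, and 314 and 375 in WT, a mean ratio of 2.6-fold and a departure of 0.79 (adjusted p = 0.0017). These 3 held with any 1 array left out. The largest departure was that of AT2G24390, at a mean ratio of 3.01-fold, with 263 and 213 in AAa, 161 and 195 in AAA, and 97.4 and 52 in WT. Its WT arrays differ nearly 2-fold, and its departure was 0.55 (adjusted p = 0.207) without WT replicate 2, 0.94 (0.071) without AAa replicate 1 and 0.93 (0.0771) without AAA replicate 2. AT2G25735 had a departure of 0.53 (adjusted p = 0.00648; 0.42 and 0.0875 without WT replicate 1). The other 5 were AT2G16890 (0.79), AT2G18690 (0.63), AT2G16750 (0.62), AT2G04305 (0.61) and AT2G16900 (0.42), and each lost its call without 1 or more of the arrays, WT replicate 1 among them (adjusted p = 0.0972, 0.0705, 0.173, 0.102 and 0.19 in that order). AT2G16890 and AT2G16900 lie close together, as do AT2G16740 (UBC29) and AT2G16750. UBC29 itself did not lie above the 3-copy level, with a departure of -0.06 (limma adjusted p = 0.794).

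Below the 3-copy level, LCR68 had a mean ratio to WT of 0.931-fold and a departure of -0.69 (adjusted p = 3.98e-04), and PIP one of 0.944-fold and -0.67 (adjusted p = 0.00111). Both held with any 1 array left out. AT2G20930 gave 2092 and 2304 in AAa, 1740 and 1743 in AAA, and 1894 and 1910 in WT, and its departure of -0.48 (adjusted p = 0.00634) held as well. AT2G25510, the brightest member, gave 36484 and 36093 in AAa, 41699 and 52163 in AAA, and 41286 and 43900 in WT. Its AAa arrays lay below WT, and its AAA arrays overlapped WT as deposited and lay just above WT after centring, with a departure of -0.57 (adjusted p = 0.00634; 0.0774 without WT replicate 2). AT2G10940, the next brightest, gave 11025 and 12353 in AAa, 13455 and 20388 in AAA, and 16989 and 15046 in WT, a departure of -0.72 (adjusted p = 0.00408; 0.0673 without WT replicate 1).

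The remaining 7 below the 3-copy level were AT2G04070 (-0.96), AT2G07707 (-0.63), AT2G01330 (-0.58), AT2G23390 (-0.51), AT2G01100 (-0.41), AT2G22230 and AT2G15580. Without WT replicate 2 the adjusted p was 0.0852 for AT2G04070, 0.0784 for AT2G01330, 0.192 for AT2G23390 and 0.319 for AT2G01100, and without WT replicate 1 it was 0.284 for AT2G07707; AT2G22230 and AT2G15580 lay outside the 10 furthest below and were named after their values were seen. A ratio of 1 or less in both trisomics was found for 5 members: AT2G04070, AT2G04790, AT2G05580, AT2G07741 and AT2G21560. None of these 5 differed from WT at an adjusted p below 0.05 in either trisomic. AT2G04070 gave 88.5 and 61.3 in AAa, 113 and 77.8 in AAA, and 120 and 106 in WT.

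The other brightest members were near the 3-copy level or between it and WT. AT2G01250 gave 9037 and 7261 in AAa, 9632 and 10890 in AAA, and 7496 and 7138 in WT, and passed in AAA alone (1.48-fold). AT2G19730 gave 7667 and 9187 in AAa, 10087 and 8172 in AAA, and 7488 and 7773 in WT, and passed in neither (1.14-fold in AAa and 1.26-fold in AAA). AT2G04700 was 1.45-fold higher in AAa and 1.3-fold in AAA, AT2G14910 1.31- and 1.67-fold, and AT2G25450 1.35- and 1.64-fold. AT2G14910 gave 5904 and 6321 in AAa, 7930 and 7298 in AAA, and 4961 and 4714 in WT, so that its 3 karyotypes did not overlap.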

How the data were processed

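RNA of rosette leaves from plants grown 16 h in light and 8 h in dark at 22 °C was measured on 6 arrays. The authors obtained probe set signals with GCOS (version not given in the sources used here), and the deposited values are in intensity units with a trimmed mean of 500.0 to 500.1 per array. The study's own GC-RMA and vsn values were not used here. Signals below 1 (246 to 489 per array) were set to 1, all were taken to log2, and the median of the 5478 expressed 2-copy genes was brought to a common value on all arrays. Probe sets counted as expressed at or above the 40th percentile of mean log2 signal over 22746 probe sets. Of 22810 probe sets 13513 had 1 gene, 503 several and 8794 none in the table used; 29 of the first were not matched to a locus. The brightest probe set per gene was kept (8 members had 2 or more). Locus names and order came from the TAIR10.1 annotation; the files name no build.

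limma 3.58.1 in R 4.3.3 (statmod 1.5.0; lmFit, eBayes with intensity trend) was fitted to 7256 genes over 6 arrays in 3 groups, with 3 degrees of freedom from the arrays and 13.4 from the prior. All tests were two-sided and adjusted after Benjamini and Hochberg over all 7256 genes, at 0.05. Ratios are given ± the standard error of the fit (n = 2 arrays per karyotype), whose number limits the precision. On simulated data the fit of AAA against WT was checked for recovery. The alternatives were other scalings, filters, probe set rules, a replicate block and each array left out.

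Members, lists, named-gene rule and roles were chosen with earlier results of these data known. The rule named the 10 largest differences each way between AAa and AAA, the 10 largest departures each way from copy number (both sets past the test, with no array of the groups overlapping, or with all trisomic arrays on 1 side of the expected level), the 10 brightest, the 5 highest and 5 lowest ratios per trisomic, the genes at the limits, and members of the lists, which stand as counts where the table gives no name. Role groups were added after the names available were known. Promoter motifs were not analysed here, as no sequence was used.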

Additional observations from a re-analysis of the deposited data

Results flagged for a closer look

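The members flagged were those with a tested difference between AAa and AAA although both carry 3 copies; the difference is AAa minus AAA on the log2 scale, from the limma contrast at an adjusted p below 0.05 over all genes tested. Groups of 2 arrays were too small for a check of single arrays. Of the 64 members past the test, the 36 named here were lower or higher in AAa as follows, with no explanation tested.

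Lower in AAa were AT2G18210 (-1.74), AT2G16270 (-1.21), AT2G20950 (-1.06), AT2G21640 (-0.98), AT2G05540 (-0.89), AT2G24600 (-0.87), AT2G01300 (-0.87), AT2G14900 (-0.86), AT2G02170 (-0.76) and AT2G16660 (-0.71). Also lower were ATMAP65-6 (-0.68), AT2G16750 (-0.67), AT2G25735 (-0.66), UBC29 (-0.56), AT2G10940 (-0.54), MSRA5 (-0.52), LCR68 (-0.51), AFR (-0.47), AT2G25510 (-0.40), AT2G01250 (-0.37) and AT2G14910 (-0.35).

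Higher in AAa were AT2G15020 (0.87), AT2G24040 (0.86), AT2G01540 (0.78), AT2G04850 (0.75), AT2G25625 (0.68), AT2G14080 (0.65), AT2G04740 (0.62), AT2G21130 (0.62), AT2G04305 (0.60) and AT2G20142 (0.60). So were AT2G24240 (0.59), SPP (0.57), PIP (0.56), ETL1 (0.40) and PIA1 (0.36). Of these 36 calls, 10 held with each array left out in turn and under all other settings tried: AT2G18210, AT2G20950, AT2G24600, AT2G05540, AT2G16660, ATMAP65-6 and AT2G25735 among the lower, and AT2G15020, AT2G01540 and SPP among the higher.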

How the results depend on the processing

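The median ratio to WT stayed above 0 in AAa and in AAA under all settings. For AAa and AAA over WT the medians were 0.49 and 0.45 as deposited, 0.45 and 0.45 when arrays were centred on all expressed genes, 0.47 and 0.44 after quantile normalization, and 0.52 and 0.51 with 16 added to every signal; the difference of AAa from AAA was 0.03 as deposited and 0.01 after quantile normalization. As deposited, the 2-copy genes had medians of -0.05 in AAa and -0.09 in AAA against WT. The first 3 settings take some of the tripled genes into the scale by construction. Members below the 3-copy level then numbered 23, 35 and 30, and members lower than WT 2 in AAa and 1 in AAA under each. With no filter on dim probe sets, which tests more genes, 13 members were higher and 21 lower in AAa than AAA, 4 lay above and 3 below the 3-copy level, and 0 were lower than WT in AAa. With no intensity trend 23 were lower in AAa than AAA, 5 lay above and 4 below the 3-copy level and 0 were lower than WT in AAa; the cause was not tested. With the 4 loci put back and the limit moved to AUR2, 3 members were lower than WT in AAa and 3 in AAA. Set against the median ratio of genes in 3 copies, 14 lay above and 7 below. The replicate numbers did not pair the arrays (correlations of deviations -0.04, 0.05 and -0.05). With the replicate block 236 members were higher in AAa and 226 in AAA, and 0 were lower in AAa.

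Leaving out 1 array at a time gave 138 to 221 members higher in AAa than WT and 120 to 216 in AAA, 0 to 2 lower in AAa and 0 to 1 in AAA, 7 to 27 higher and 15 to 41 lower in AAa than AAA, and 4 to 7 above and 6 to 10 below the 3-copy level. The members higher than WT in AAa were 149 without AAa replicate 1 and 138 without AAa replicate 2, and in AAA 130 without AAA replicate 1 and 120 without AAA replicate 2. Those higher and lower in AAa than AAA were 12 and 15 without AAa replicate 1, 7 and 16 without AAa replicate 2, 9 and 15 without AAA replicate 1, and 12 and 17 without AAA replicate 2. Those above and below the 3-copy level were 4 and 9 without WT replicate 1, 7 and 8 without WT replicate 2, 7 and 6 without AAa replicate 2, 6 and 8 without AAA replicate 1, and 7 and 6 without AAA replicate 2. The medians stayed between 0.51 and 0.54 in AAa and between 0.53 and 0.54 in AAA, and the difference between -0.01 and 0.01. Among the genes named, 26 of 54 calls of AAa against WT, 23 of 57 of AAA against WT, 10 of 36 of AAa against AAA and 5 of 20 departures from copy number passed under every setting tried. The difference of AAa from AAA changed sign for AT2G25510, which was 0.14 (adjusted p = 0.43) after quantile normalization.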
